A study of Homo sapiens with 6 samples.

Results

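The genes described here are the DNA replication licensing and fork genes, 44 of the 27469 genes with counts in the table, chosen by name as listed rows of that table. All 44 were found, and they fall into 10 roles: the MCM2 to MCM7 helicase, the origin recognition complex, the loaders CDC6 and CDT1 with the inhibitor GMNN, the factors that activate the helicase, the polymerases, the clamp and its loader, RPA, Okazaki fragment enzymes and the enzymes of deoxynucleotide supply. They were measured in HMC3, an immortalised human line labelled as microglia, in 3 libraries from cells treated with IL-33 for 24 h and 3 Control libraries. Both groups are the same line and no other agent is named. The labels name no separate cultures as the source of the libraries, and p-values therefore measure how far these libraries spread, which may be technical variation. The libraries are of the QuantSeq 3′ kit, in which a transcript gives a tag near its 3′ end, so a level in CPM (counts scaled to the TMM-adjusted size of the library) is not divided by transcript length and levels are compared between genes on that scale.

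Before S phase, the origin recognition complex binds DNA and, with CDC6 and CDT1, loads the MCM helicase as an inactive ring onto each origin. This loading is called licensing, and geminin, the product of GMNN, blocks it later in the cycle by binding CDT1. At firing, CDC45 and the GINS complex join the helicase, polymerase alpha with its primase lays the primers, and polymerases epsilon and delta, held by the PCNA clamp, copy the strands. Many of these genes are transcribed at the G1/S boundary by E2F factors, which the retinoblastoma protein holds back. HMC3 was immortalised with the SV40 large T antigen, which binds that protein, so proliferation in this line is not that of microglia in tissue.

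RefSeq promoter windows (GRCh38.p14, 250 bases before to 50 after the annotated start) were available for 38 of the 44 genes. No entry was matched for MCM4, MCM5, GINS4, POLD3, RPA2 and RPA3. The letters searched for E2F were TTTGGCGC, TTTCCCGC, TTTCGCGC and TTTGCCGC on both strands, with overlapping matches counted. They were found in 18 of the 38 replication promoters (47.4%), against 6.19% of the 6675 promoters of tested genes at 10 CPM or more and 3.31% of all 35116 promoters in the RefSeq table. Among lists of related genes, the letters were in 3 of 8 promoters of chromatin assembly (37.5%) and 6 of 17 of the E2F, RB and DREAM group (35.3%). In the other lists the share ran from 8.33% to 22.2%. All 4 available promoters of MCM2 to MCM7 held them, that of MCM10 did not, and 1 of 6 promoters of the origin recognition complex did. Other forms were not searched. TTTGGCGG, which differs from TTTGGCGC in its last base, is in the windows of MCM10, CDC45 and CDC6 and was not counted. The 24 matches began between positions -187 and 8, counted from the annotated start, and 16 of them lay within 60 bases of it.

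The sequences below are the 4 available promoters of MCM2 to MCM7 and that of CDC6, as examples that hold the letters, that of ORC2, the replication gene with the smallest p, which holds none, and that of TYMS, which holds them although almost no tags were counted for this gene. Each reads 5′ to 3′ on the strand of the gene, and capitals mark the E2F letters on either strand.
MCM2, chr3:127598161-127598460, plus strand: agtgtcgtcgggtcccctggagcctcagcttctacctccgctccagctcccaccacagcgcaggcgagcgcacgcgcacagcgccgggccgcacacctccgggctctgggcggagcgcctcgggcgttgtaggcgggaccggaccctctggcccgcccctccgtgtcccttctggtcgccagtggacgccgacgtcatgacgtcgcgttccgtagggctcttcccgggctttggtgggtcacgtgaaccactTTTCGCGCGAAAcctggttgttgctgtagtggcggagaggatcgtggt
MCM3, chr6:52284693-52284992, minus strand: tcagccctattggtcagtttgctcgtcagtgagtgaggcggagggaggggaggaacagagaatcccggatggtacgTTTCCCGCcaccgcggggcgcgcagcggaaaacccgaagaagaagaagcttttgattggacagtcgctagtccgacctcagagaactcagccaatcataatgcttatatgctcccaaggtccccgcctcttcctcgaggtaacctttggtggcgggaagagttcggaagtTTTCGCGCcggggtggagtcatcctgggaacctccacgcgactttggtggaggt
MCM6, chr2:135876394-135876693, minus strand: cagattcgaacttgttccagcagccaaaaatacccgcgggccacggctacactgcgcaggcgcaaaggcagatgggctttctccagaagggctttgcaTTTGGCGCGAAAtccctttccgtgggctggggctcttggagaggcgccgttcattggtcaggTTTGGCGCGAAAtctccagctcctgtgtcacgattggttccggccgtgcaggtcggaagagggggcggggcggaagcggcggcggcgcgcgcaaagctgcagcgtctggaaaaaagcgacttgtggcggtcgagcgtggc
MCM7, chr7:100101348-100101647, minus strand: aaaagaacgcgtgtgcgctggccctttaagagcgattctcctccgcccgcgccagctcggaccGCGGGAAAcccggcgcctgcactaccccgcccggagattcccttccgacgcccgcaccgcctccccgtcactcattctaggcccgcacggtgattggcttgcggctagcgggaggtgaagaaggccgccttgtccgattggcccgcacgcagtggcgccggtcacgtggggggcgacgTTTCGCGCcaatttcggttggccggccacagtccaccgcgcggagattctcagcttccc
CDC6, chr17:40287629-40287928, plus strand: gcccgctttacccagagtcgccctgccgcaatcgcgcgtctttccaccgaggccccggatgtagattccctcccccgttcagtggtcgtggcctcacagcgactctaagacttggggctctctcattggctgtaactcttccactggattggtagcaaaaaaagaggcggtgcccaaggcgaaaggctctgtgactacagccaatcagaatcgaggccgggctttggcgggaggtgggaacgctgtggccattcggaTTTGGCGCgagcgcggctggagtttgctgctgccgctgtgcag
ORC2, chr2:200963611-200963910, minus strand: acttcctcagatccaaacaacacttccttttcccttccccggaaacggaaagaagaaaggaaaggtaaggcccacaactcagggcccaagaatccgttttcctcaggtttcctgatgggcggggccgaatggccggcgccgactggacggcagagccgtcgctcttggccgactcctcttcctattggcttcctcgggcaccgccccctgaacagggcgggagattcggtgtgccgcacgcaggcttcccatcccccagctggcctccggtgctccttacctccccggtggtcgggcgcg
TYMS, chr18:657403-657702, plus strand: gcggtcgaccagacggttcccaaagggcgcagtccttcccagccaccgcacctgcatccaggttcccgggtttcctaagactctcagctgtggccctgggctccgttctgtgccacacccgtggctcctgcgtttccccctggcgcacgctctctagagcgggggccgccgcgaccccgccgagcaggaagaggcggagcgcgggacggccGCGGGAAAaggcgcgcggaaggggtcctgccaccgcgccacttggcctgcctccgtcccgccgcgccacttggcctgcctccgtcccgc
In MCM6 the 4 matches form 2 stretches, in each of which the letters of both strands overlap, and in MCM2 the 2 matches overlap in 1 stretch just after the start. MCM3 and MCM7 each hold 1 match near the start and 1 farther upstream. The letters CCAAT, on both strands, were in 22 of 38 replication promoters (57.9%), against 37.8% of the promoters of tested genes at 10 CPM or more. The letters of the CHR element (TTTGAA or TTCGAA, both strands), an element known from genes of mitosis, were in 2 of the 38 (5.26%), against 15 of 19 promoters of mitosis genes (78.9%) and 10.98% of tested genes at 10 CPM or more. A match is a description of the letters and not a measured site, and a window without a match may hold a form that was not searched. The median level was 59.5 CPM over the 18 genes that hold E2F letters and 53.9 CPM over the 20 that do not. Their medians of the log2 fold change, IL-33 over Control, were -0.02 (17 tested) and 0.01 (20 tested).

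**Figure D1:**
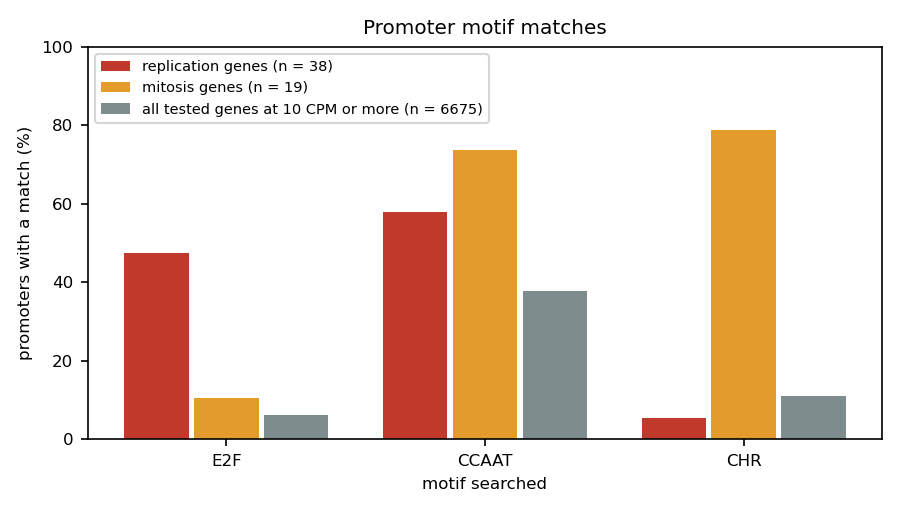
Share of promoter windows (vertical axis, %) that hold the letters of the E2F, CCAAT and CHR motifs (horizontal axis), for replication genes, mitosis genes and all tested genes at 10 CPM or more. E2F letters are in 47.4% of the replication promoters and CHR letters in 78.9% of the mitosis promoters.

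Library totals ran from 8294747 to 10217529 counts with IL-33 and from 5739947 to 9933395 in Control, and the 44 genes took between 0.469% and 0.495% of the counts. The shallowest library, Control 3, lay at -55.0 on the first principal component (35.4% of the variance), far from the other libraries, which lay between -0.86 and 18.04. Of 12 microglia and macrophage markers, 6, namely TMEM119, P2RY12, CX3CR1, ITGAM, TYROBP and SPI1, had 0 counts in every library. The others were detected at a low level. CD68 had 149 counts over the 6 libraries, CD14 67 and TREM2 37, while CSF1R, AIF1 and PTPRC had 25, 9 and 2. The labelled cell type is therefore not shown by its defining markers. Of 9 fibroblast and mesenchymal markers 7 could be tested, and COL1A1, FN1, THY1 and VIM were abundant, with FN1 at 3636 CPM with IL-33 and 3708 CPM in Control, while PDGFRB, COL1A2 and S100A4 were low (4.35 to 40.9 CPM with IL-33 and 5.05 to 31.9 CPM in Control) and COL3A1 and ACTA2 had 0 counts. A list of 4 neuronal markers summed to between 5.08 and 5.42 CPM with IL-33 and between 1.27 and 2.52 CPM in Control. Most of it was SNAP25, with 29 to 49 counts a library with IL-33 and 7 to 25 in Control. All IL-33 values of SNAP25 lay above all Control values, as in 4.54% of all genes tested. Sums of 4 oligodendrocyte markers (4.95 to 7.35 CPM with IL-33, 5.36 to 6.51 CPM in Control) overlapped. So did those of 5 astrocyte markers (0.879 to 2.83 and 1.92 to 2.68 CPM). SNAP25, the 1 neuronal marker that could be tested, had a log2 fold change of 0.97 ± 0.53 (SE), IL-33 over Control. Its unadjusted p was 0.0804 and its adjusted p 0.999 by edgeR's quasi-likelihood test. Whether the neuronal list bears on the other results was not tested.

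The replication genes were well measured in both groups, as the plot of levels by role shows. RRM1, the large subunit of ribonucleotide reductase, was the most abundant, with a mean of 748 CPM over the 6 libraries, and 26 of the 44 genes lay at 50 CPM or more. MCM4, MCM7, RFC1 and MCM3 followed with 333, 320, 283 and 278 CPM. Least abundant among the tested genes were ORC3, a subunit of the origin recognition complex, at 10.04 CPM and POLE2, the second subunit of polymerase epsilon, at 9.89 CPM. TYMS, thymidylate synthase, stood far below at 0.0527 CPM and was the 1 gene of the 44 that did not pass the filter on low counts. Of the 43 pairs of neighbours in this order, 3 had ranges over the 6 libraries that did not meet: RRM1 lay above MCM4, MCM6 above RFC4, and POLE2 above TYMS. The ranges of all other neighbours met, so ranges alone do not resolve their order. Some of these pairs still kept 1 order within libraries, as FEN1 lay above MCM2 in each of the 6.

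**Figure D2:**
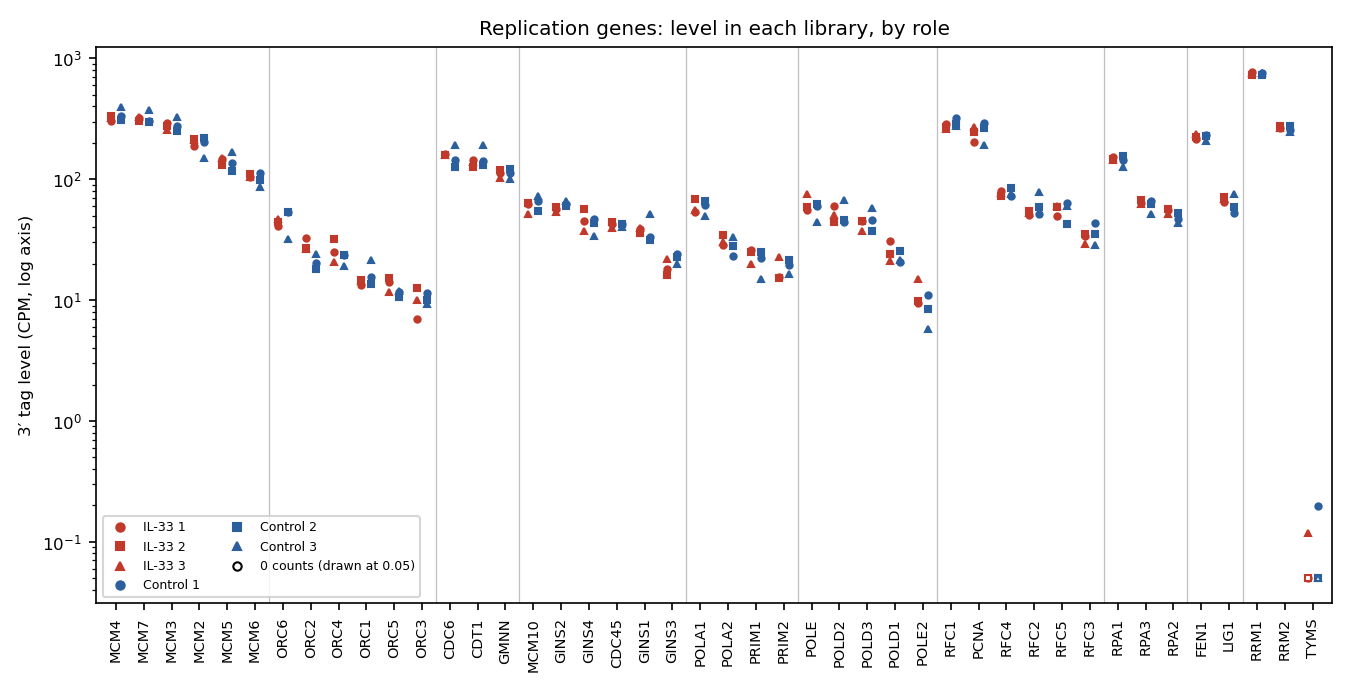
Level of each replication gene (vertical axis, CPM on a log axis) in each library, with IL-33 in red to the left of Control in blue and roles separated by vertical lines. The 2 groups lie on each other for nearly every gene, RRM1 is highest at 748 CPM, and TYMS, with 0 counts in 4 libraries, lies far below all others.

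The comparison of IL-33 with Control asked whether these transcripts differ after 24 h of the cytokine. None of the 43 tested genes passed. In the quasi-likelihood test of edgeR, adjusted by Benjamini-Hochberg over the 12125 genes tested, 0 of 43 had an adjusted p under 0.05, and the share called among all genes was 0.0%. DESeq2 also called 0 of 43 (0.00825% of all genes), as did limma-voom (0.0%). At an unadjusted p under 0.05 there was 1 gene among the 43 by each of the 3 tools, ORC2, which was higher with IL-33. By edgeR 2.43% of all genes tested reached that p, 1.45% higher and 0.981% lower, by DESeq2 2.39% and by limma-voom 2.8%. The log2 fold change was above 0 for 24 (55.8%) and below 0 for 19, beside 48.9% above 0 among all genes, and its median was 0.01, beside -0.01. In whole libraries, a different share of cells in S phase and a different amount of RNA per cell cannot be told apart.

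The intervals show how large a change of each gene the spread of these libraries allows. The 95% interval around each log2 fold change fell between -1 and 1 for 42 of the 43, beside 73.4% of all genes tested and 96.9% of those at 10 CPM or more. It fell within a 1.5-fold change in either direction for 35 of the 43, beside 48.9% and 71.2%. The exception to the wider bounds was POLE2, whose interval ran from -0.22 to 1.07. Over all 43 the lowest bound of a fold was 0.602, for ORC1, and the highest 2.10, for POLE2. A p that misses the threshold does not show that a level was the same. For each gene taken alone, the interval gives the changes left possible by the spread of these libraries. As that spread may be technical, the intervals need not cover a change in other cultures.

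**Figure D3:**
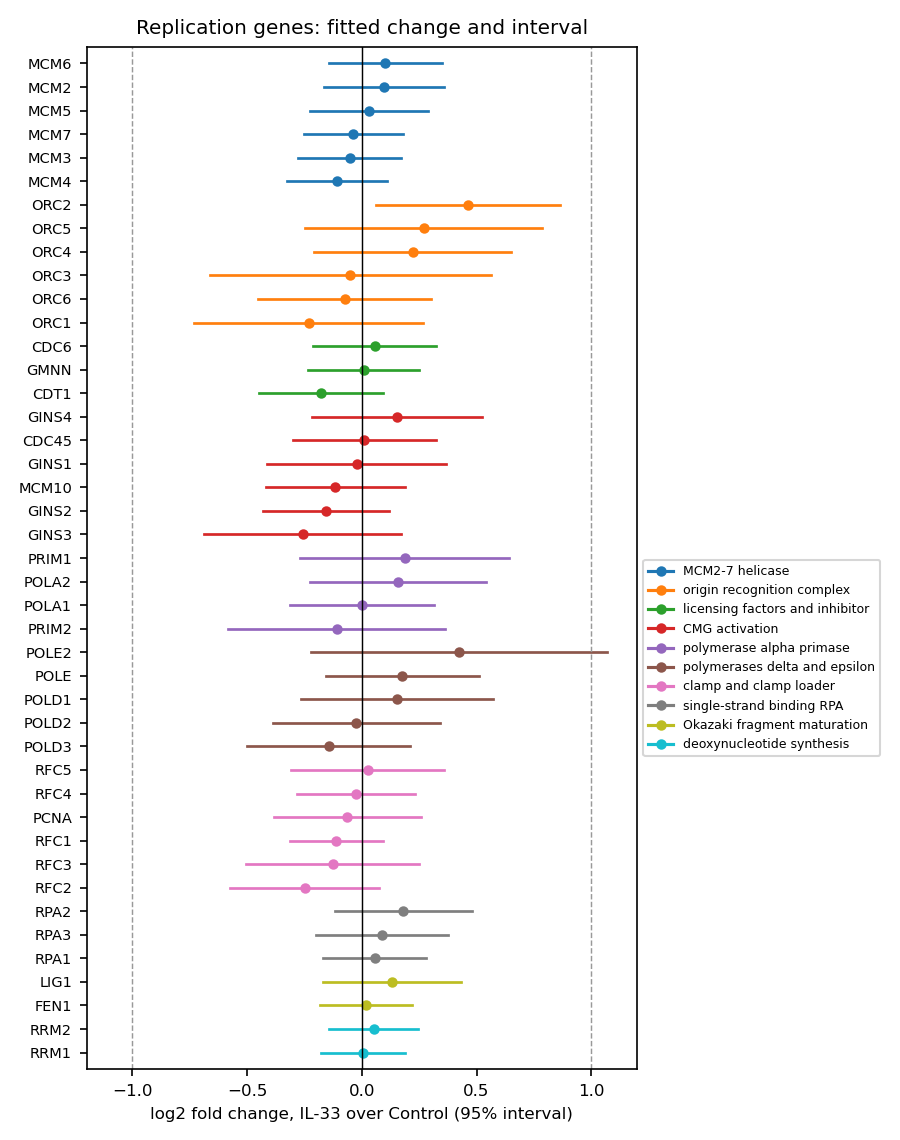
Fitted log2 fold change of IL-33 over Control (horizontal axis, points) with its 95% interval (lines) for the 43 tested replication genes, coloured by role, with dashed lines at -1 and 1. The interval of ORC2, from 0.06 to 0.87, is the only one that leaves out 0, and that of POLE2 is the only one to cross 1.

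Among the MCM genes, which encode the ring of the replicative helicase, 3 of 6 lay above 0 and 3 below, and the log2 fold changes ran from -0.11 for MCM4 to 0.10 for MCM6. MCM2 had 188, 215 and 209 CPM in IL-33 1 to 3, against 203, 220 and 149 CPM in Control 1 to 3. MCM6 had 105, 110 and 104 CPM with IL-33, against 112, 98.2 and 86.7 CPM in Control. In both genes Control 3 was the lowest library, while Control 2 was the highest in MCM2 and Control 1 the highest in MCM6. MCM4 had 303, 335 and 323 CPM with IL-33, against 333, 308 and 396 CPM in Control, and MCM7 had 320, 301 and 327 CPM, against 302, 296 and 375 CPM. MCM3 had 289, 276 and 253 CPM with IL-33, against 276, 248 and 325 CPM in Control, and MCM5 had 148, 130 and 149 CPM, against 135, 118 and 166 CPM. In these 4 genes Control 3 was the highest library, and the groups overlapped in all 6. The log2 fold change was 0.10 ± 0.12 (SE) for MCM2, with an unadjusted p of 0.449, and -0.11 ± 0.10 for MCM4, with 0.310. MCM6 was the least abundant subunit, and the ratio of MCM4 to MCM6 was 3.01 ± 0.104 with IL-33 and 3.56 ± 0.875 in Control (SD, n = 3 each), and Control 3 alone had 4.57. Summed over the 6 subunits, the level was 1362 ± 8.15 CPM with IL-33 and 1382 ± 106 CPM in Control.

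**Figure D4:**
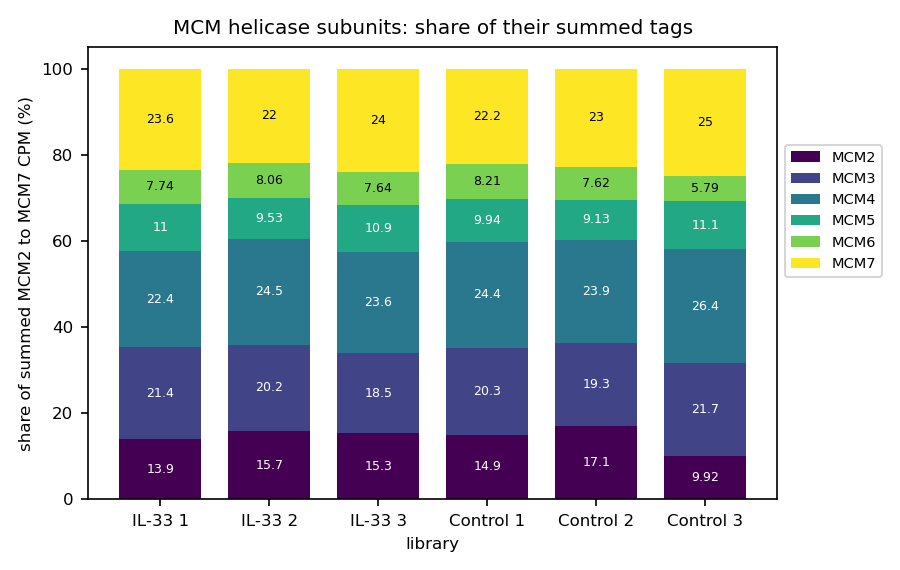
Share of each subunit in the summed CPM of MCM2 to MCM7 (vertical axis, %) in each library (horizontal axis), with the value printed in each segment. MCM2 takes 9.92% in Control 3 and between 13.9% and 17.1% in the other libraries, and MCM6 takes 5.79% in Control 3 and between 7.62% and 8.21% elsewhere.

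The origin recognition complex marks the sites where the helicase is loaded, and its 6 genes were low, from 10.04 CPM for ORC3 to 45.2 CPM for ORC6. ORC2 (chromosome 2, 200908973 to 200963680, GENCODE 29 on GRCh38, minus strand) had 32.4, 26.8 and 26.4 CPM with IL-33, against 20.3, 18.2 and 23.9 CPM in Control. All IL-33 values lay above all Control values, as they did in 4.54% of all genes tested. The means were 28.5 ± 3.36 CPM with IL-33 and 20.8 ± 2.90 CPM in Control (SD, n = 3 each), and the log2 fold change was 0.46 ± 0.19 (SE). The unadjusted p was 0.0259, and edgeR's test gave 0.999 as the adjusted p, which does not pass. Without IL-33 1 the log2 fold change was 0.36 with an unadjusted p of 0.125, without Control 1 it was 0.45 with 0.0611, and without Control 2 it was 0.38 with 0.0989. ORC5, another subunit, had 14.2, 15.2 and 11.7 CPM with IL-33, against 11.6, 10.6 and 11.9 CPM in Control, a log2 fold change of 0.27 ± 0.25 with overlapping groups. ORC4 had 0.22 ± 0.20, ORC3 -0.05 ± 0.29 and ORC6 -0.08 ± 0.18. ORC1, the subunit that comes and goes with the cycle in human cells, had 13.4, 14.7 and 14.3 CPM with IL-33, against 15.4, 13.5 and 21.4 CPM in Control, a log2 fold change of -0.23 ± 0.24. In the complex 3 genes lay above 0 and 3 below. With a library left out, ORC3 ran from -0.28 to 0.15 and ORC6 from -0.28 to 0.042. ORC1 stayed below 0 (-0.37 to -0.031), though its interval with all libraries ran from -0.73 to 0.27. Whether the complex shares the direction of ORC2 was therefore not resolved. Annotated exons of ACVR2A on the opposite strand cover 430 of the last 500 bases of ORC4. As no strand setting is stated, it is not known whether the counting told reads of such a pair apart.

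CDC6 and CDT1, which load the helicase, and GMNN, which blocks CDT1, were at like levels, between 111 and 157 CPM. CDC6 had 161, 158 and 159 CPM with IL-33, against 145, 125 and 191 CPM in Control. The 3 IL-33 libraries lay close together, inside the range of Control. CDT1 had 143, 126 and 139 CPM with IL-33, against 141, 130 and 191 CPM in Control, a log2 fold change of -0.18 ± 0.13 (unadjusted p 0.183 by edgeR). GMNN had 113, 120 and 102 CPM with IL-33, against 112, 120 and 101 CPM in Control, and its log2 fold change of 0.01 had a 95% interval from -0.23 to 0.25. The ratio of CDT1 to GMNN was 1.22 ± 0.160 with IL-33 and 1.41 ± 0.431 in Control (SD, n = 3 each; two-sided exact permutation p = 0.7, 0.1 being the smallest that this design can give), and Control 3 had the highest ratio, 1.90.

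CDC45, the 4 GINS genes and MCM10 turn the loaded ring into an active helicase. GINS2 had 56.6, 58.7 and 53.4 CPM with IL-33, against 62.4, 60.1 and 65.7 CPM in Control. It was the only one of the 43 genes with all IL-33 values below all Control values, an arrangement found in 3.51% of all genes tested, and the difference was small (log2 fold change -0.16 ± 0.13, unadjusted p 0.248 by edgeR). GINS3 had 17.9, 16.1 and 21.8 CPM with IL-33, against 23.9, 22.8 and 19.7 CPM in Control, with overlapping groups and a log2 fold change of -0.26 ± 0.21. GINS1 and GINS4 had -0.02 ± 0.19 and 0.15 ± 0.18. With a library left out, GINS1 ran from -0.16 to 0.23 and GINS4 from -0.020 to 0.29. Whether the 4 subunits of GINS share a direction was therefore not resolved. CDC45 spread little, with 42.1 ± 2.63 CPM with IL-33 and 41.7 ± 1.52 CPM in Control (SD, n = 3 each). MCM10 had a log2 fold change of -0.11 ± 0.15.

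Of the 4 genes of polymerase alpha and primase, which make the primers, 3 lay above 0, between 0.00 for POLA1 (below 0 with DESeq2's size factors) and 0.19 for PRIM1, and PRIM2 had -0.11 ± 0.23. POLE2 had 9.48, 9.77 and 14.97 CPM with IL-33, against 10.9, 8.42 and 5.79 CPM in Control. IL-33 3 was the highest library and Control 3 the lowest, the groups overlapped, and the log2 fold change was 0.42 ± 0.31. POLE, the catalytic subunit of the leading-strand polymerase, had 55.2, 59.4 and 75.6 CPM with IL-33, against 60.3, 62.9 and 44.3 CPM in Control, with the same libraries at the ends and a log2 fold change of 0.18 ± 0.16. The subunits of polymerase delta had 0.15 ± 0.20 (POLD1), -0.02 ± 0.17 (POLD2) and -0.14 ± 0.17 (POLD3).

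The clamp loader RFC opens the PCNA ring and places it on DNA, and of its 5 genes with PCNA, 5 of 6 lay below 0, with a median of -0.09. PCNA had 201, 245 and 270 CPM with IL-33, against 291, 265 and 191 CPM in Control. Both groups spread widely and overlapped, with means of 239 ± 35.0 CPM with IL-33 and 249 ± 51.9 CPM in Control (SD, n = 3 each). RFC2 had 50.6, 54.9 and 52.1 CPM with IL-33, against 51.0, 59.1 and 78.2 CPM in Control, a log2 fold change of -0.25 ± 0.16 (unadjusted p 0.124 by edgeR), with Control 1 inside the IL-33 range. RFC1, the large subunit, had 285, 271 and 262 CPM with IL-33, against 322, 288 and 273 CPM in Control, a log2 fold change of -0.11 ± 0.10, and only Control 3 lay inside the IL-33 range. RFC3, RFC4 and RFC5 had -0.13 ± 0.18, -0.03 ± 0.12 and 0.02 ± 0.16. Exons of WSB2 on the opposite strand cover 437 of the last 500 bases of RFC5.

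The 3 genes of RPA, which coats single-stranded DNA, all lay above 0. RPA2 had 55.6, 56.4 and 51.3 CPM with IL-33, against 47.2, 52.9 and 43.8 CPM in Control, a log2 fold change of 0.18 ± 0.14 with Control 2 inside the IL-33 range. RPA1 and RPA3 had 0.06 ± 0.11 and 0.09 ± 0.14. With a library left out, RPA1 ran from -0.019 to 0.13 and RPA3 from -0.012 to 0.17, so their direction was not held. Averaged over the 3 genes, Control 3 lay at -0.23 (log2) from the gene mean, against -0.003 and 0.06 for Controls 1 and 2. FEN1, the flap nuclease of Okazaki fragments, had 225 ± 10.8 CPM with IL-33 and 222 ± 12.4 CPM in Control (SD, n = 3 each). LIG1, which seals these fragments, had 65.2, 71.5 and 68.0 CPM with IL-33, against 52.7, 59.3 and 75.6 CPM in Control, a log2 fold change of 0.13 ± 0.14 with Control 3 above all other libraries.

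Ribonucleotide reductase, which makes deoxynucleotides, was abundant and spread little between libraries. RRM1 had 766, 731 and 751 CPM with IL-33, against 759, 727 and 752 CPM in Control, a log2 fold change of 0.01 ± 0.09 with a 95% interval from -0.18 to 0.19. RRM2, the subunit whose level follows S phase, had 267, 274 and 263 CPM with IL-33, against 257, 274 and 245 CPM in Control, and 0.05 ± 0.09. For both genes the fold allowed by the interval lay between 0.885 and 1.19. The ratio of RRM1 to RRM2 was 2.80 ± 0.113 with IL-33 and 2.89 ± 0.217 in Control (SD, n = 3 each; two-sided exact permutation p = 0.6, 0.1 being the smallest that this design can give).

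TYMS makes thymidylate and is needed in dividing cells that take up no thymidine, yet it had 0, 0 and 1 counts with IL-33 and 2, 0 and 0 counts in Control. These 3 counts are the total over the 6 libraries. Every library lay below the limit of detection, taken as 3 counts in a library or between 0.293 and 0.543 CPM, and no fold was computed. The gene lies on chromosome 18 from 657604 to 673578 on the plus strand, and annotated exons of ENOSF1 on the opposite strand cover all of its last 500 bases. ENOSF1 had 335 counts over the 6 libraries, and TYMSOS, an RNA gene named as lying opposite TYMS, had 333. Of 495 protein-coding genes with a 3′ end so covered, 322 (65.1%) passed the filter, against 58.1% of the 17284 with no such cover. The counting rule for overlapping genes is not given in the sources used here, and why TYMS was near 0 was not tested. TK1, the thymidine kinase of the salvage route, was abundant at 709 ± 62.3 CPM with IL-33 and 779 ± 70.8 CPM in Control (SD, n = 3 each).

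Control 3 set much of the spread among these genes. It was the highest or lowest of the 6 libraries in 31 of the 43 (14 highest, 17 lowest), 72.1%, where it was so in 53.2% of all genes tested. Relative to the mean of Controls 1 and 2 its level ran from -0.74 (log2) for ORC6 to 0.68 for GINS1. CDT1 and CDC6 were 0.50 higher there, while PRIM1, POLE2 and PCNA differed by -0.66, -0.71 and -0.54. So the replication genes did not move together in that library, and their median deviation was -0.10. The median SD within the IL-33 group was 0.10 on the log2 scale for the 43 genes and 0.14 for all genes at 10 CPM or more, and within Control 0.20 and 0.19.

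Leaving out Control 3 gave 5 replication genes at an unadjusted p under 0.05 by edgeR, against 1 with all libraries. They were 11.6% of the 43, where 6.3% of the 12611 genes then tested reached that p, 3.38% higher and 2.92% lower. None of the 43 had an adjusted p under 0.05, where 0.0476% of those genes did. These 5 were ORC2 (log2 fold change 0.57), LIG1 (0.29) and CDC6 (0.24), with PCNA (-0.22) and RFC1 (-0.16) below 0. With all libraries, CDC6, PCNA and LIG1 had 0.06, -0.06 and 0.13. In LIG1 and CDC6 Control 3 lay above every other library and in PCNA below every other, so these values rest on leaving out the Control that went against them. Without IL-33 1 or without Control 2 the number was 0, and without Control 1 it was 1, RFC2 in place of ORC2 (log2 fold change -0.38).

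Other genes of the pathway, from 9 lists of 142 genes, were not called either. Of the 137 tested, 0 had an adjusted p under 0.05 by edgeR's quasi-likelihood test, 1 was higher and 1 lower at an unadjusted p under 0.05 (beside 1.45% and 0.981% of all genes tested, so near or under that share), and the median log2 fold change was -0.02. POLD4, the small subunit of polymerase delta, had 48.5, 47.9 and 43.7 CPM with IL-33, against 37.0, 34.0 and 40.4 CPM in Control, a log2 fold change of 0.33 ± 0.15 (unadjusted p 0.0407). POLK, a translesion polymerase, had 55.2, 58.6 and 57.1 CPM with IL-33, against 66.1, 70.7 and 68.8 CPM in Control, and -0.27 ± 0.13 (unadjusted p 0.04996). In both the groups did not overlap, and over the 9 lists 7 of the 137 genes lay wholly above Control and 3 wholly below, near the 4.54% and 3.51% of all genes tested.

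Among 18 tested genes of the E2F, RB and DREAM group the median was -0.07, with 7 above 0 and 11 below. E2F1, an activator of replication genes, had 124, 113 and 129 CPM with IL-33, against 120, 121 and 152 CPM in Control, a log2 fold change of -0.10 ± 0.12. E2F6, a repressor of the family, had 5.75, 4.20 and 6.84 CPM with IL-33, against 7.55, 11.5 and 7.6 CPM in Control, and -0.67 ± 0.34 (unadjusted p 0.0627 by edgeR). It was low, with 42 to 96 counts a library. All its IL-33 values lay below all Control values, as in 3.51% of all genes tested. E2F2, also low, lay wholly the other way, with a log2 fold change of 0.37 ± 0.32. The 26 tested genes of origin firing and fork accessories had a median of 0.06, with 18 above 0, beside 48.9% above 0 among all genes tested. G1/S cyclins and CDKs (14 tested), licensing control by ubiquitin ligases (12) and nucleotide supply beyond the 44 (14) each had a median of 0.00, the 8 genes of chromatin assembly -0.02, the 12 of the replication checkpoint -0.06 and the 9 of MCM paralogs and translesion polymerases -0.06. Of the checkpoint genes, FANCI had 64.9, 64.4 and 64.1 CPM with IL-33, against 61.4, 57.1 and 33.7 CPM in Control. All IL-33 values lay above all Control values, as in 4.54% of all genes tested, and Control 3 was far below the other libraries. Its log2 fold change was 0.34 ± 0.18 (unadjusted p 0.0740 and adjusted p 0.999 by edgeR). Of 24 mitosis genes 20 lay below 0, beside 6201 of all 12125 genes tested, with a median of -0.05. The genes of a list were measured in the same 6 libraries and are not replicates of each other. MKI67, the proliferation marker, had 606 ± 29.7 CPM with IL-33 and 655 ± 28.02 CPM in Control (SD, n = 3 each), a log2 fold change of -0.11 ± 0.09.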

How the data were processed

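RNA of HMC3 cells was measured in 3 IL-33 and 3 Control libraries made with the QuantSeq 3′ FWD kit, per the labels' protocols. The authors deposited whole-number read counts per gene symbol, 1 column per library, not pooled. Per the submitters' processing notes, STAR 2.7.5a, HTSeq 0.6.1, edgeR and hg38 were used, in roles that are not stated. The sources used here do not give the annotation, the strand setting or the counting rule for overlapping genes. Of 27470 rows, 1 held no values and was left out.

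Genes were tested with edgeR 4.0.16 (R 4.3.3) after filterByExpr (count minimum 10, total minimum 15) and TMM scaling, with the robust quasi-likelihood test, no covariate beside group and p-values adjusted by Benjamini-Hochberg over all 12125 genes tested, which held 99.9% of the counts. Intervals came from the fitted log2 fold change and its SE. DESeq2 1.42.0 and limma 3.58.1 (voom) were other tools. The procedure was tested on simulated data. Positions and overlaps came from GENCODE 29 (GRCh38) by symbol, and promoters from RefSeq. Python 3.11.15 and matplotlib 3.10.9 drew the figures. Reads without molecular identifiers are not independent molecules, so limits from counts cover counting error only.

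The 44 genes, the lists and the tests were chosen with earlier results of these data known. The text gives values per library for genes at an unadjusted p under 0.05, the 5 with the smallest p in each direction, genes whose groups did not overlap, the highest and lowest genes, the MCM2 to MCM7 genes, CDC6, CDT1, GMNN, PCNA, RRM1, RRM2 and TYMS, and up to 2 genes per other list. ORC1, LIG1, E2F1, MKI67 and TK1 were added after their values were seen. No libraries of a group agreed within sampling noise (chi-square per degree of freedom 5.63 to 16.8), and none were merged. As alternatives, scaling used DESeq2's size factors or library totals, 2 other filters and the other tools were run, replicate number entered as a block, and each library was left out.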

Additional observations from a re-analysis of the deposited data

How the results depend on the processing

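No replication gene was called under any of the 13 alternatives, 7 of them other settings and 6 with a library left out, and 42 or 43 intervals lay within -1 to 1. Over all genes, edgeR's quasi-likelihood test called 3 without the low-count filter, DESeq2 called 1, and with a library left out edgeR called 0 to 6, the 6 without Control 3. The number of replication genes at an unadjusted p under 0.05 ran from 0 to 5 with a library left out and was 1, ORC2, in the other settings. The median log2 fold change of the replication genes moved by less than its spread between libraries (0.032) throughout. The sign held in every setting for 20 of 43 genes. The labels do not say that replicate numbers pair the libraries, and same-numbered libraries deviated with correlations of -0.086, 0.027 and -0.136. With the replicate block, 0 replication genes were called, ORC2 was the 1 at an unadjusted p under 0.05, and GINS1 had a log2 fold change of 0.0045, against -0.02. By limma-voom GINS1 had 0.052, POLD2 0.028 and POLA1 -0.011, and POLA1 had -0.0029 by DESeq2 and with its size factors, all on the other side of 0. With a library left out, the log2 fold change changed sign in 23 genes, whose ranges were MCM2 (-0.052 to 0.21), MCM3 (-0.14 to 0.055), MCM5 (-0.078 to 0.17), MCM7 (-0.097 to 0.078), ORC3 (-0.28 to 0.15), ORC6 (-0.28 to 0.042), CDC6 (-0.071 to 0.24), GMNN (-0.057 to 0.070), CDC45 (-0.032 to 0.057), GINS1 (-0.16 to 0.23), GINS4 (-0.020 to 0.29), POLA1 (-0.12 to 0.096), POLD1 (-0.015 to 0.27), POLD2 (-0.15 to 0.19), POLD3 (-0.28 to 0.016), PCNA (-0.22 to 0.065), RFC3 (-0.26 to 0.036), RFC4 (-0.074 to 0.042), RFC5 (-0.14 to 0.14), RPA1 (-0.019 to 0.13), RPA3 (-0.012 to 0.17), FEN1 (-0.026 to 0.051) and RRM1 (-0.011 to 0.025). The cause was not tested. Depth limits the low genes most, with ORC3 and POLE2 at about 10 CPM, and 3 libraries a group limit all of them.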
